A study of Mus musculus with 2 samples.

Results

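S3 erythroblasts are the fetal liver red cell precursors that carry both Ter119, a surface antigen of maturing red cells, and CD71, the transferrin receptor, at high levels. They were identified here in a CITE-seq experiment, in which 1 droplet library of cDNA and 1 library of antibody barcodes were read from the same cells. The cells were pooled from 7 fetal livers of wild-type C57BL/6 embryos at e13.5. Ter119-positive cells had been depleted and then mixed back in equal number with the Ter119-negative ones. The share of S3 among the cells is therefore not their share in the liver. Of the 7863 cells, 7355 passed the quality limits (300 to 5000 detected genes and at most 9% mitochondrial UMIs), and 6508 of these had a summed count of at most 95 for the 5 lineage antibodies (CD11b, CD41, Ly6G/6C, CD45R and CD3e). S3 comprised the 876 lineage-low cells with at least 89 Ter119 counts and at least 734 CD71 counts in which *Hbb-y* did not exceed the sum of *Hbb-bs* and *Hbb-bt*. This was 11.1% of all cells and 13.5% of the lineage-low cells. The last criterion removed 15 of 891 cells, those with mainly embryonic globin. All groups share the same animals, stage and library. They were set apart by their antibody counts only, so there are no replicates and no test was possible. The intervals below are 95% intervals for counting error only. Which cells had been removed by the depletion and added back is not given per cell. An effect of this handling therefore cannot be told apart from a difference that goes with Ter119.

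Terminal erythroid differentiation proceeds through a small number of cell divisions in which cells become smaller, accumulate hemoglobin, condense the nucleus and finally expel it. CD71 brings transferrin-bound iron into the cell and is lost as cells mature, whereas Ter119 is gained and kept on red cells. S3 therefore stands between S2, with high CD71 and intermediate Ter119, and S4/S5, with high Ter119 and lower CD71, and these neighbours are the comparisons used here.

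The antibodies were read through 12-base barcodes, and 4 of these are shown (capitals mark the whole barcode). Ter119 and CD71 set the stages, whereas cKit and CD44 were measured but not gated. The lineage antibodies also placed the cells, through the limit on their summed count, and their barcodes are not shown.

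Ter119: GAGGCGATTGAT

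CD71: CGAAGAAGGAGT

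cKit: AAGCGCTTGGCA

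CD44: GTCTAGACTTCG

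S2 was taken as 25 to 88 Ter119 counts with the same CD71 limit (1327 cells), S4/S5 as at least 89 Ter119 counts with CD71 below the limit (849 cells), and S1 as under 25 Ter119 counts with high CD71 (646 cells). The Ter119 count of S3 cells ran from 89 to 449 with a median of 124, and their CD71 count from 734 to 6766 with a median of 1399.5. These counts chose the cells and are a description only. The barcode of the non-specific IgG was found in 3.31% of S3 cells, against 2.56% of S2 cells and 2.24% of S4/S5 cells.

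**Figure D1:**
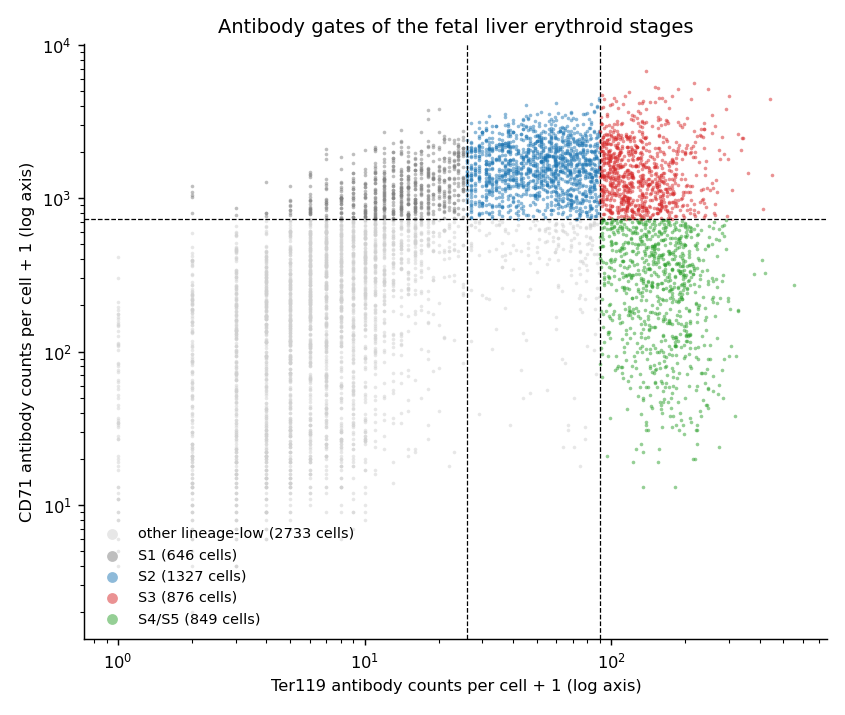
Ter119 counts (x axis) against CD71 counts (y axis) of lineage-low cells, each plus 1 on log axes, one point per cell, with dashed lines at the limits. The 876 S3 cells occupy the upper right corner, and the cells run on across both limits into S2 and S4/S5 without a gap.

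The limits cut through a continuum. Within 10% above the Ter119 limit lay 127 S3 cells (14.5%), and 120 S2 cells lay within 10% below it. Just inside this limit *Slc25a37* was at 2712, *Cdkn2d* at 519, *Dmtn* at 313 and *Xpo7* at 355 UMIs per 1000000 non-globin UMIs, and just outside it they were at 2627, 449, 392 and 197. Within 10% above the CD71 limit lay 54 S3 cells (6.16%), with globin at 53.2% of UMIs, and the 59 cells just below it had 58.3%. These 4 genes were at 3611, 661, 323 and 1307 just inside the CD71 limit and at 3878, 690, 358 and 1507 just outside it. At the Ter119 limit the shares were 32.7% inside and 30.6% outside.

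S3 cells held a median of 4582 UMIs (from 2513 to 27777) and 4930313 UMIs in all. Much of this was globin. Non-globin UMIs had a median of 2444 per cell, against 5103 in S2 and 1265 in S4/S5, so the mean non-globin count of S3 was 0.583 of that of S2, and that of S4/S5 was 0.439 of that of S3. The median number of detected genes was 1085 in S3, 1817 in S2 and 637 in S4/S5, and with every cell thinned to 2000 UMIs it was 636, 896 and 394. The 2000 UMIs include globin, so the non-globin depth was not matched. Mitochondrial UMIs were a mean of 5.24% of the non-globin UMIs in S2, 4.42% in S3 and 3.63% in S4/S5. Because of the growing globin share, gene levels are given as the mean over cells of UMIs per 1000000 non-globin UMIs, and ratios per cell are given beside many of them, since the direction can depend on this choice. On this scale the median log2 ratio of all listed genes was -0.16 from S2 to S3 and -0.14 from S3 to S4/S5. Counted as UMIs per cell it was -0.66 and -0.97, so most genes lost transcripts per cell at both steps, and a higher level means a larger share of the non-globin RNA. Fewer transcripts per cell and less RNA captured per cell cannot be told apart. The table also holds no cell under 2510 UMIs, globin included. The cell with the fewest had 2524 in S2, 2513 in S3 and 2510 in S4/S5. What this floor does to the per-cell values and the globin shares was not tested.

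Scrublet called 37 S3 cells (4.22%) as doublets, against 1.43% in S2 and 0.824% in S4/S5. They were kept. A set of 56 S3 cells (6.39%) had under 10% globin and stood apart, with a median of 13995 UMIs, 218 cKit counts and 292 CD44 counts, where the other 820 had 4441.5 UMIs, 16 cKit counts and 76 CD44 counts. Their *Slc25a37* level was 698 against 3547, and 15 of them were among the doublet calls. The counts of list members below were also computed without these 56 cells, and those of at least 2 genes that moved by 1.5 times or more are given.

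The genes *Slc25a37*, *Cdkn2d* and *Dmtn* were taken as markers of the stage, and 2 of the 3 were at least 1.5-fold above S2. *Slc25a37* (chr14:69241848-69285544, mm10), which encodes mitoferrin 1, the importer of iron into mitochondria, was at 387 in S1, 1557 in S2, 3365 in S3 and 2973 in S4/S5. Its S3 level was 2.16-fold that of S2 (interval 2.08 to 2.24), and per cell the ratio was 1.41. *Cdkn2d* (chr9:21288459-21291421), encoding the CDK4 and CDK6 inhibitor p19, was at 62.8, 283, 717 and 507 in the same order, which was 2.53-fold from S2 to S3 (2.34 to 2.74). *Dmtn* (chr14:70602184-70636048), encoding the membrane skeleton protein dematin, was at 86.0, 262, 388 and 269. Its ratio to S2 was 1.48 (1.35 to 1.62), just short of 1.5-fold, and per cell it was 0.962, below 1. On this scale all 3 were highest in S3 among the 4 stages, but S4/S5 was within 1.5-fold of S3 for each, at 0.883, 0.707 and 0.694 of the S3 level. In the reference cells, which are lineage-positive cells with few Ter119 and CD71 counts and with RNA of their own, they were at 43.5, 171 and 5.12.

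**Figure D2:**
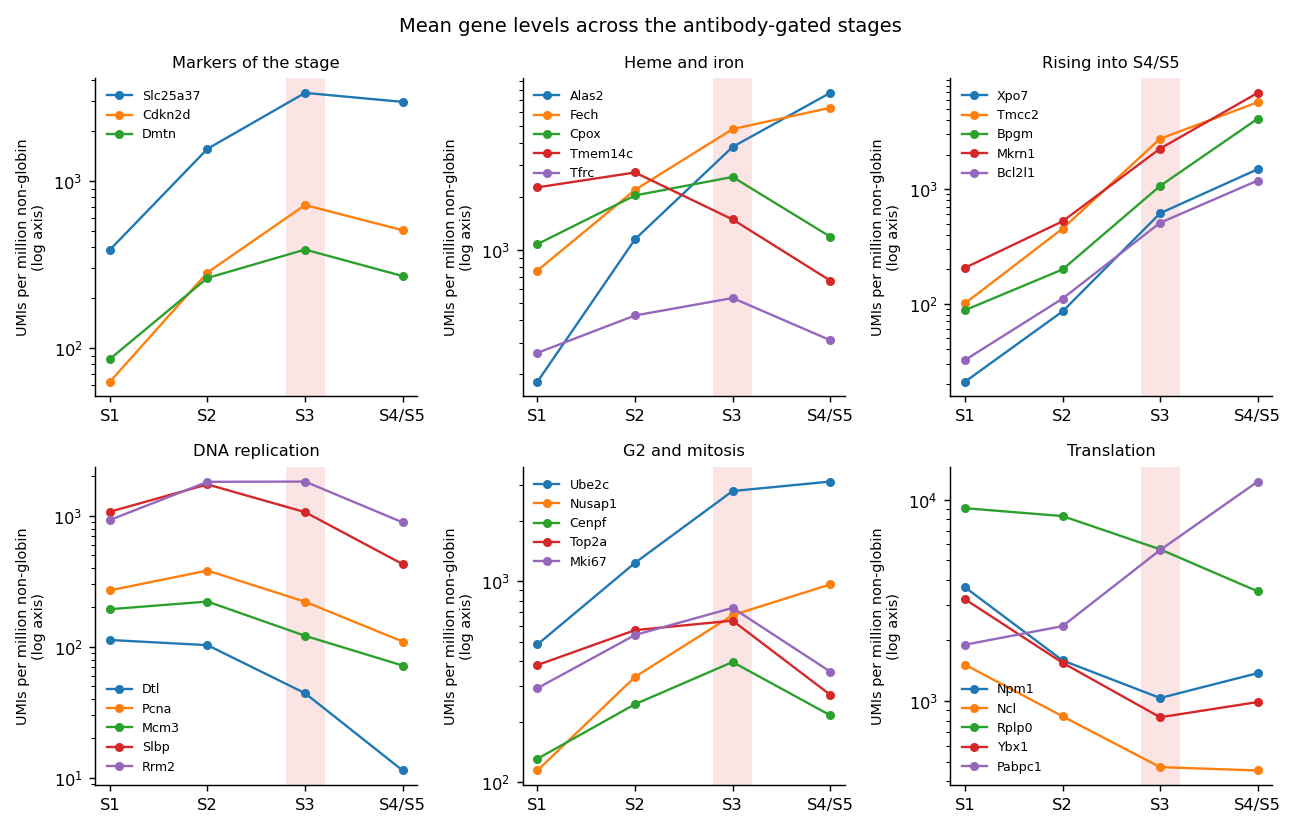
Mean levels of named genes in S1, S2, S3 (shaded) and S4/S5, in UMIs per 1000000 non-globin UMIs on log axes, one line per gene and one panel per group. On this scale *Slc25a37*, *Cdkn2d* and *Dmtn* peaked in S3 (per cell *Dmtn* was at 0.962 of S2), *Xpo7* and *Bpgm* went on to higher levels in S4/S5, and the replication genes were lower in S3 than in S2 except *Rrm2*.

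Globin took a mean of 41.5% of the UMIs of an S3 cell, up from 3.83% in S1 and 17.8% in S2, and S4/S5 reached 64.5%. The range in S3 was wide, from 2.07% to 83.7% with quartiles of 29.0% and 54.4%, and it overlapped both neighbours. The reference cells had 0.886%. Adult α-globin (*Hba-a1* and *Hba-a2*) was 4.63% of UMIs in S2, 10.4% in S3 and 15.1% in S4/S5. Adult β-globin (*Hbb-bs* and *Hbb-bt*) was 13.1%, 30.9% and 49.1%. The increase from S2 to S3 was 2.24-fold for α and 2.36-fold for β, and as UMIs per cell it was 2.04-fold and 2.15-fold. Among the cells of the table, none of which has under 2510 UMIs, globin UMIs thus increased per cell while most others did not. The copies differed. *Hba-a2* was 2.44-fold above S2 and *Hba-a1* 2.11-fold, although reads can be split between these near-identical genes. *Hbb-bh1*, a β-like gene of embryonic and early fetal cells, was at a mean of 0.134% of UMIs in S3, 2.84-fold above S2. The median S3 cell had 0.0188% and the upper quartile was 0.0435%, so the mean lay above the upper quartile. The ratio of adult α to adult β UMIs per cell had a median of 0.388 in S1, 0.362 in S2, 0.340 in S3 and 0.311 in S4/S5.

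**Figure D3:**
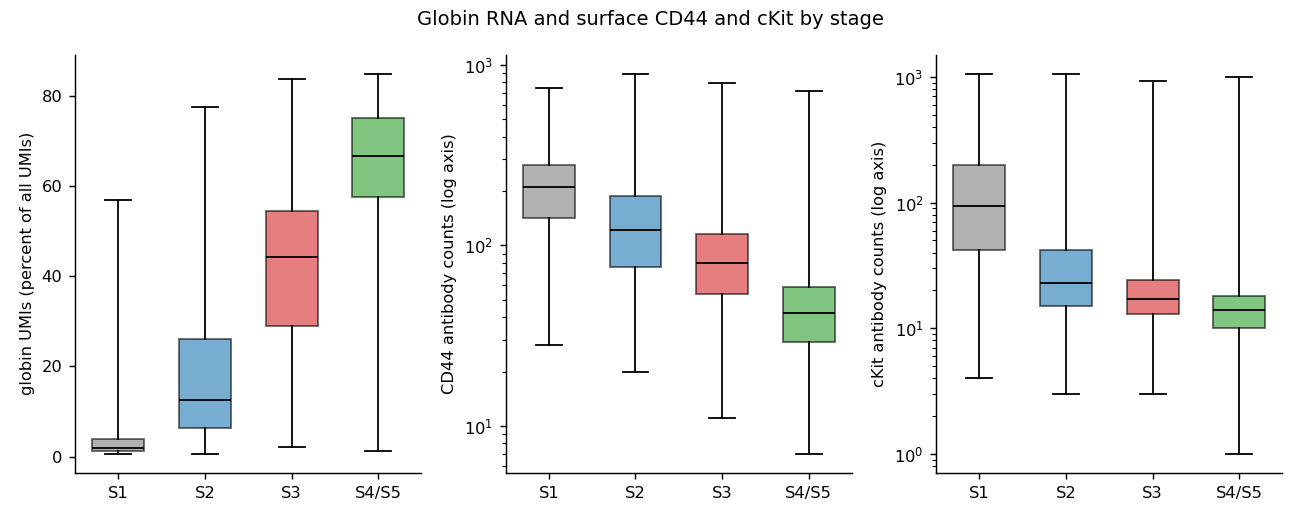
Percent of UMIs from globin genes, CD44 counts and cKit counts per cell (both log axes) in S1, S2, S3 and S4/S5. Boxes span the quartiles, lines mark medians and whiskers reach the lowest and highest cell. The median globin share of S3, 44.3%, lies between 12.5% in S2 and 66.7% in S4/S5, and CD44 falls through medians of 210, 122, 80 and 42.

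Of the 15 heme synthesis genes with at least 50 UMIs in S2 and S3 together, 7 were at least 1.5-fold higher in S3 than in S2, 7 were within 1.5-fold and 1 was lower. Counted as UMIs per cell, 1 was higher and 3 lower. Of all 7749 genes listed, 510 (6.58%) were at least 1.5-fold higher and 585 (7.55%) lower. The lower calls depended on the low-globin cells and on weighting, with 959 (12.7%) when the 56 cells were left out and 103 (1.33%) when counts were pooled over cells, while 7.39% and 5.9% were higher. As UMIs per cell 1.39% of all genes were higher and 57.2% lower, and the per-cell counts of each list from S2 to S3 are to be read beside these shares. *Alas2*, the first enzyme of erythroid heme synthesis, was at 1149 in S2, 3812 in S3 and 7690 in S4/S5, and was 3.32-fold above S2 (3.18 to 3.46), or 2.15-fold per cell. *Fech*, ferrochelatase, which inserts the iron, was the most abundant member at 4803 and was 2.20-fold above S2. *Slc25a39*, a mitochondrial glutathione transporter, was 2.61-fold higher and *Urod*, a decarboxylase of the pathway, 1.84-fold. *Tmem14c*, a mitochondrial porphyrin transporter, went the other way, from 2735 in S2 to 1486 in S3 and 672 in S4/S5. *Cpox*, coproporphyrinogen oxidase, was 1.27-fold above S2 at 2581, though 0.792 of S2 per cell.

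From S3 to S4/S5, 2 of 15 were higher and 6 lower (0 and 12 per cell, 3 and 4 pooled over cells, and 1 and 9 without the 56 low-globin cells), against 328 of 5853 genes higher (5.6%) and 798 lower (13.6%) among all genes listed. At this step 0.188% of all genes were higher and 82.8% lower per cell, 5.43% and 10.7% pooled over cells, and 7.17% and 14.2% without the 56 cells. *Alas2* went up another 2.02-fold and *Slc25a39* 1.59-fold, although the latter was 0.835 of S3 per cell. *Cpox* dropped to 0.460 of its S3 level (0.43 to 0.49) and *Tmem14c* to 0.452. As a share of non-globin UMIs *Cpox* had its highest level of the 4 stages in S3, while *Alas2* did not.

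Because *Cdkn2d* was higher in S3 and *Alas2* and *Bpgm* at both steps, their promoters are printed as examples, chosen after their values were seen. Each runs from 250 bases before to 50 after a RefSeq start site in GRCm38.p6. The start site used for *Cdkn2d* lies inside the gene coordinates given above and not at their outer end. Capitals mark matches, on both strands, to AGATAA and its variant TGATAA and to the letters CCNCNCCCN, which are related to the sites of GATA1 (the first pair) and KLF1, factors that act in red cell precursors. AGATAA is in 11.2% of 32851 promoters of this length, TGATAA in 9.05% and CCNCNCCCN in 49.4%.

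Cdkn2d, chr9:21291160-21291459, minus strand: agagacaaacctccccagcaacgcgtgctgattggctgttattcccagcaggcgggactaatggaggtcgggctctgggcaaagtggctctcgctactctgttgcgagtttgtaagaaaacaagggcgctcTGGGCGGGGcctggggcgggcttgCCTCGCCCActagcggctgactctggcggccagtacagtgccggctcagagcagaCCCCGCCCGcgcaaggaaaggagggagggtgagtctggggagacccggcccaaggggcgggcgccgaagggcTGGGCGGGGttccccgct

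Alas2, chrX:150547167-150547466, plus strand: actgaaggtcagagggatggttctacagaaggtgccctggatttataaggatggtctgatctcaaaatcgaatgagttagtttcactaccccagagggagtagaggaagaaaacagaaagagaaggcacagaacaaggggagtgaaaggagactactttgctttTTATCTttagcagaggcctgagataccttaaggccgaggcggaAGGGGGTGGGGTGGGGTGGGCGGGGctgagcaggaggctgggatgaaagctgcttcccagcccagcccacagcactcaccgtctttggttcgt

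Bpgm, chr6:34476106-34476405, plus strand: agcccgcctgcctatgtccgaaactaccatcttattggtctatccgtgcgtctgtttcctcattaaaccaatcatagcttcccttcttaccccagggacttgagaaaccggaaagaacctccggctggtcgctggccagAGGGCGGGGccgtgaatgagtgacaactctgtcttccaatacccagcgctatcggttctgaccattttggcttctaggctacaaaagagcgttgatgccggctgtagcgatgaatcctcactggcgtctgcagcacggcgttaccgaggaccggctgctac

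The *Alas2* window held 1 match to AGATAA and 4 matches to CCNCNCCCN in 1 run, of which the last adjoins the others without overlapping them. The *Cdkn2d* window held 4 matches to CCNCNCCCN and the *Bpgm* window 1, and neither held AGATAA or its variant TGATAA.

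Iron handling genes were mostly within 1.5-fold of S2, with 3 of 19 higher and 0 lower, and per cell 0 were higher and 9 lower. Apart from *Slc25a37*, these were *Ftl1*, the ferritin light chain, at 21376 in S3 and 1.62-fold above S2, and *Isca1*, an iron-sulfur cluster assembly factor, at 180 and 1.72-fold, although both were below S2 per cell (0.915 and 0.984). *Tfrc*, the RNA of CD71 itself, was at 427 in S2, 536 in S3 and 310 in S4/S5, so it was 1.25-fold higher in S3 than in S2 (1.16 to 1.35), though 0.756 of S2 per cell, and dropped to 0.579 in S4/S5, a group set by its lower CD71 protein. *Slc11a2*, the endosomal iron transporter DMT1, dropped to 0.523 of S3.

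Of 19 genes of red cell membrane proteins 9 were at least 1.5-fold above S2, 8 were within 1.5-fold and 2 were lower, with a median log2 ratio of 0.57 against -0.16 for all genes. *Slc2a1*, the glucose transporter GLUT1, had the highest ratio, at 331 in S2 and 1269 in S3, 3.84-fold (3.54 to 4.15) and 2.60-fold per cell. *Slc4a1*, the anion exchanger band 3, was 1.96-fold above S2, *Kel* 1.72-fold and *Rhag*, of the Rh complex, 1.66-fold, although *Rhag* was 0.929 of S2 per cell. *Aqp1*, a water channel, was at 41.2 in S2 and 17.7 in S3, and *Slc29a1*, a nucleoside transporter, at 195 and 110. Counted per cell, 1 of the 19 was at least 1.5-fold higher and 4 lower, and pooled over cells 10 and 1. Between S3 and S4/S5 only *Aqp1* was higher, from 76 UMIs in S3 (and lower per cell, at 0.529), and 3 of 19 were lower, among them *Icam4*, an adhesion glycoprotein, at 0.446 and *Epor*, the erythropoietin receptor, at 0.602. Per cell 0 of the 19 were higher at this step and 15 lower, and pooled over cells 3 were higher and 2 lower, with a median log2 ratio of 0.14 in place of -0.14.

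Of 17 genes in the membrane skeleton list 6 were higher and 0 lower, and per cell 2 were higher and 3 lower. *Tmcc2* was at 101 in S1, 451 in S2, 2748 in S3 and 5715 in S4/S5, 6.09-fold from S2 to S3 and 4.43-fold per cell. It is named for transmembrane and coiled-coil domains and not for a place in the skeleton, so its values do not speak for skeleton genes. *Epb41*, protein 4.1, was 3.09-fold higher, *Mpp1*, the p55 protein of the same junction, 2.57-fold and *Epb42*, protein 4.2, 2.04-fold. *Epb41* and *Mpp1* were higher again in S4/S5 (1.87-fold and 1.86-fold), whereas *Epb42* was at 1.03 of S3 there (0.596 per cell). *Actb*, the most abundant of the list, had nearly the same level in S2 and S3 (2935 and 2902), though 0.64 of S2 per cell.

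**Figure D4:**
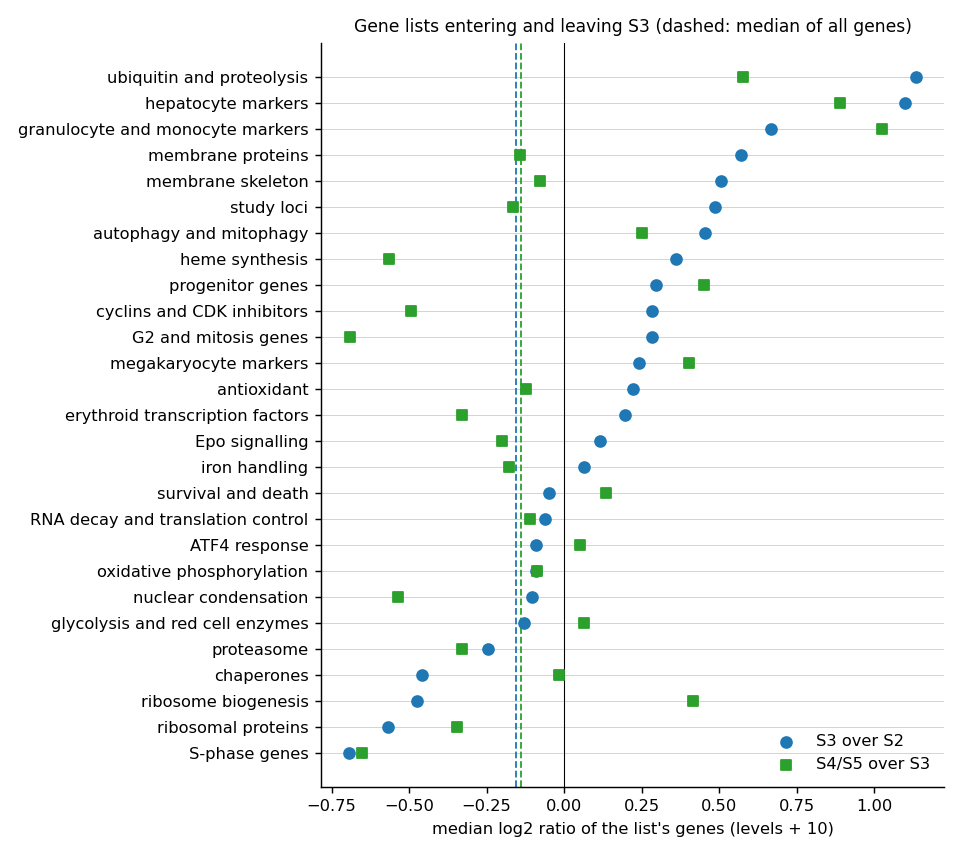
Median log2 ratio of the genes of each list with at least 5 genes measured, for S3 over S2 (circles) and S4/S5 over S3 (squares), with dashed lines at the medians of all genes. Ubiquitin genes lie to the right at both steps (per cell -0.28 at the second), S-phase genes to the left at both, and G2 and mitosis genes to the right entering S3 (0.28, but -0.40 per cell) and to the left leaving it (-0.69).

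Among erythroid transcription factors, 6 of 18 were higher in S3 than in S2 and 2 lower, and per cell 1 was higher and 8 lower (pooled over cells 6 and 1). *Gata1*, *Klf1* and *Tal1*, which drive the erythroid program, stayed within 1.5-fold of S2, at 305, 1189 and 360 (0.664, 0.722 and 0.790 of S2 per cell), and dropped to 0.609, 0.567 and 0.610 in S4/S5. *Mxd1*, a MYC antagonist, was at 43.1 in S2 and 128 in S3, 2.97-fold (2.40 to 3.67). *Foxo3*, a factor active in late erythroblasts, was 2.07-fold higher and *Nfe2* 1.89-fold. *Klf13* was at 0.438 and *Bcl11a*, a repressor of embryonic globin, at 0.537 of the S2 level. *Zbtb7a*, another globin repressor, was within 1.5-fold of S2 and then dropped to 0.380 in S4/S5.

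Of 30 S-phase genes 19 were lower in S3 than in S2 and 0 higher, with a median log2 ratio of -0.69. With counts pooled over cells 6 of the 30 were lower, and per cell 30 were. *Dtl*, which marks replication proteins for degradation, was at 103 in S2, 44.2 in S3 and 11.4 in S4/S5. *Pcna*, the replication clamp, was at 382, 221 and 110, and *Mcm3*, of the replicative helicase, at 222, 121 and 72.0. *Slbp*, the histone mRNA binding protein, was at 1738, 1067 and 428. The most abundant member, *Rrm2*, a ribonucleotide reductase subunit, was the exception at 1818 in S2 and 1826 in S3, and was 0.488 of this in S4/S5. Of 30 G2 and mitosis genes 4 were higher in S3 and 0 lower, and 6 were higher when pooled or without the 56 low-globin cells. *Ube2c*, which serves the anaphase-promoting complex, was at 1233 in S2 and 2805 in S3, 2.27-fold (2.19 to 2.36), *Nusap1* was 2.03-fold and *Cenpf* 1.62-fold higher. *Mki67* (736) and *Top2a* (636) were within 1.5-fold of S2 (0.882 and 0.709 per cell). From S3 to S4/S5 1 of the 30 was higher and 19 lower, with *Kif23* at 0.407, *Top2a* at 0.428 and *Mki67* at 0.482. Pooled over cells 2 of the 30 were higher at this step and 7 lower, and per cell 28 were lower. Per cell, 0 of these 30 genes were at least 1.5-fold higher in S3 than in S2 and 4 were lower. The cell cycle was not called per cell, so these are levels of genes and not shares of cells in a phase.

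Of the cyclins and inhibitors, 3 of 14 were higher and 1 lower, per cell 2 were higher and 6 lower, and pooled over cells 6 were higher and 1 lower. Besides *Cdkn2d*, *Cdkn1b*, encoding the CDK inhibitor p27, was at 18.6 in S2 and 59.4 in S3 (3.19-fold, 2.29 to 4.45) and *Btg1*, an antiproliferative gene, was 1.75-fold higher. *Cdk4* was at 0.510 of S2. *Ccnd3*, the most abundant at 749, was at 0.745 of S2 and then at 0.407 of S3 in S4/S5. *Cdkn2c* was at 215 in S3 (0.926 of S2 per cell) and dropped to 0.420 of this in S4/S5.

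Of 80 ribosomal protein genes 33 were lower in S3 than in S2 and 0 higher. With counts pooled over cells 0 of the 80 were past 1.5-fold, and per cell 79 were lower. As means over cells, their summed level was 181634 in S2, 120070 in S3 and 90585 in S4/S5. The most abundant, *Rplp0*, was at 8284, 5664 and 3504. Of 22 ribosome biogenesis genes 9 were lower and 0 higher (2 lower when pooled, 14 without the 56 low-globin cells and 21 per cell), with *Nop58* at 0.456, *Ncl*, nucleolin, at 0.560 and *Npm1*, nucleophosmin, at 0.651 of S2. From S3 to S4/S5 4 of 20 were higher and 0 lower, with 13 higher without the 56 cells, 0 past 1.5-fold either way when pooled, and 19 lower per cell. Of 17 chaperones 6 were lower (1 when pooled and 16 per cell), among them *Hsp90ab1* (0.543) and *Hspa8* (0.578), and only *Hspa5*, of the endoplasmic reticulum, higher at 1.55-fold, though 0.822 per cell. Genes of oxidative phosphorylation were mostly within 1.5-fold of S2, with 0 of 78 higher and 4 lower. Of 37 proteasome genes 2 were lower (4 without the 56 low-globin cells) and 0 higher. Pooled over cells 0 genes of either list passed 1.5-fold, and per cell 65 of the 78 and 35 of the 37 were lower. Among factors of RNA decay and translation control, 4 of 17 were higher and 1 lower, and per cell 1 was higher and 10 lower. *Pabpc1*, the cytoplasmic poly(A)-binding protein, was at 2354 in S2, 5621 in S3 and 12287 in S4/S5, while *Ybx1* was at 1549, 831 and 989 (per cell S4/S5 was at 0.398 of S3). *Pnrc1* was 2.74-fold above S2.

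Genes of ubiquitin conjugation had a median of 1.14 on the log2 scale (0.31 per cell), with 16 of 19 higher in S3 than in S2 and 0 lower. *Ubb*, polyubiquitin B, was the most abundant, at 1602 in S2, 4223 in S3 and 9938 in S4/S5. *Ube2h*, a ubiquitin-conjugating enzyme, was at 19.0, 99.0 and 242, 5.20-fold from S2 to S3 (3.87 to 7.0). *Ube2o*, which marks ribosomal proteins for destruction in reticulocytes, was 4.71-fold higher, *Mkrn1*, a ubiquitin ligase, 4.31-fold and *Ube2b* 3.41-fold. Per cell 6 of the 19 were still at least 1.5-fold higher and 1 was lower. At the next step 9 of 19 were higher and 0 lower, though per cell 1 was higher and 7 lower. Autophagy and mitophagy genes were higher in 7 of 18 and lower in 1, with *Bnip3l* (NIX), the receptor that clears mitochondria from reticulocytes, at 914, 2212 and 4427, *Pink1* 3.30-fold and *Gabarapl2* 2.46-fold above S2, and *Atg5* at 0.558. Per cell, 0 of these 18 were at least 1.5-fold higher and 4 were lower, a count made after adding the pseudocount, since the plain per-cell ratio of *Pink1* was 1.60. In the nuclear condensation list 4 of 21 were higher and 1 lower, and per cell 1 was higher and 12 lower. *Xpo7*, an exporter needed for chromatin condensation, was at 20.8 in S1, 85.6 in S2, 615 in S3 and 1489 in S4/S5, 7.18-fold from S2 to S3 (6.13 to 8.42) and 5.88-fold per cell. *Riok3* was 2.65-fold higher. *H1f0*, the linker histone variant, had the lowest ratio of the list at 0.371, and *H2afz*, the most abundant, was at 0.789.

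*Bcl2l1*, encoding BCL-XL, which keeps late erythroblasts alive, was at 32.2 in S1, 111 in S2, 508 in S3 and 1186 in S4/S5, 4.59-fold from S2 to S3 (4.00 to 5.25). *Pim1*, a kinase induced by cytokines, was 2.23-fold higher at 1257. These were the only 2 of 15 survival and death genes at least 1.5-fold higher, 12 were within 1.5-fold and 1 was lower, and per cell 1 was higher and 6 lower. Of 15 genes of Epo signalling 3 were higher and 2 lower (1 and 5 per cell, 3 and 1 pooled), with 2 of the higher ones again *Bcl2l1* and *Pim1*. Of 23 antioxidant genes 7 were higher and 0 lower, and per cell 0 were higher and 10 lower. *Gpx1* was the most abundant at 17050, 2.34-fold above S2, *Cat*, catalase, was 2.77-fold and *Prdx2*, abundant in red cells, 1.75-fold, although *Prdx2* was 0.986 of S2 per cell. In the list of glycolysis and red cell enzymes 3 of 21 were higher and 2 lower, per cell 2 were higher and 15 lower, and pooled over cells 3 and 0. *Bpgm*, which makes 2,3-bisphosphoglycerate, was at 199 in S2, 1065 in S3 and 4112 in S4/S5, 5.35-fold and then 3.86-fold. *Car2*, carbonic anhydrase 2, was at 15150 and 1.58-fold above S2, though 0.902 per cell. In the list of the ATF4 response 3 of 14 were higher and 1 lower (1 and 8 per cell), and these 3 included *Ppp1r15a*, which reverses eIF2α phosphorylation (2.53-fold), and *Eif2ak1*, the heme-regulated eIF2α kinase (2.28-fold).

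Genes were ranked by the ratio after adding 10 to each level, and plain ratios are printed. The 10 genes with the highest rank from S2 to S3, leaving out globin genes and unnamed transcripts, were *Tcp11l2*, *Xpo7*, *Tmcc2*, *Bpgm*, *Hsd3b6*, *Bcl2l1*, *Fam46c*, *Fam220a*, *Mkrn1* and *Sowaha*. *Tcp11l2* was at 96.6 in S2 and 710 in S3 (7.35-fold, 6.33 to 8.53). *Hsd3b6*, a steroid dehydrogenase, was at 14.4 and 96.5 and then at 104 in S4/S5 (0.803 of S3 per cell). All 10 were higher in S3 per cell as well, by 2.36-fold to 6.35-fold. At the low end of this ranking were *H1f0*, *Siva1*, *Ppa2*, *Sfxn1*, *Fabp5*, *Polr2m*, *Dtl*, *Kcnq1ot1*, *Nudt9* and *Rfc4*, between 0.359 and 0.465 of S2. *Fabp5*, a fatty acid binding protein, was at 1271 in S2 and 587 in S3, and *Sfxn1*, a mitochondrial serine transporter, at 181 and 78.0.

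From S3 to S4/S5 the highest in the same ranking were *Bpgm*, *Mkrn1*, *Fam220a*, *Lgmn*, *Dstn*, *Ncf4*, *Prtn3*, *Tmem205*, *Sqstm1* and *Xpo7*. *Mkrn1* was at 2254 in S3 and 6900 in S4/S5 (3.06-fold, 2.93 to 3.19). *Prtn3*, a granulocyte protease, was at 12.5 and 46.9, with 1070 in the reference cells, so this low level was far under that of other blood cells. The lowest were *Cdc42ep3*, *Hist1h1b*, *Mybl2*, *Mxd3*, *Hist4h4*, *Ncapd3*, *Dek*, *Mtif2*, *Zfp367* and *Hist1h2ap*. *Dek*, a chromatin protein, was at 1733 in S2, 1543 in S3 and 560 in S4/S5, and *Mybl2*, a factor of cell cycle genes, at 85.6, 73.2 and 19.5. Several of these were at or near their S2 level in S3, with *Hist1h1b* at 1.10 and *Mxd3* at 1.37 of S2, though 0.720 and 0.897 per cell.

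S3 was not uniform. The 876 cells were split into 3 equal groups of 292 by their CD71 count, from 734 to 1137, from 1140 to 1808 and from 1813 to 6766. Mean globin was 49.2% in the low, 41.8% in the middle and 33.4% in the high group. The median CD44 count was 60, 77.5 and 110.5, and the median of non-globin UMIs was 1889, 2497 and 3729. Of 4304 genes with enough UMIs in the outer groups, 276 were at least 1.5-fold higher in the low-CD71 group and 422 lower. *Tcp11l2* was at 1140, 711 and 278 from low to high CD71, *Xpo7* at 1012, 567 and 267 and *Bpgm* at 1757, 891 and 547. The summed level of the ubiquitin list was 20830, 15471 and 11278, and that of the S-phase list 5494, 6624 and 8055. That of ribosomal proteins was 100382, 116984 and 142843. Markers of other cells also differed, with the hepatocyte list at 1632, 1468 and 827 and the granulocyte and monocyte list at 371, 300 and 207, and their part in the other values was not tested. *Slc25a37*, *Cdkn2d* and *Dmtn* were within 1.5-fold between the outer groups. *Slc25a37* was at 3727, 3460 and 2908, *Cdkn2d* at 761, 780 and 609 and *Dmtn* at 388, 440 and 337. *Tfrc* RNA was at 523, 478 and 606. As UMIs summed over the cells of a group, the 3 markers were instead lower in the low-CD71 group. *Slc25a37* had 2341 UMIs in the low and 3007 in the high group, *Cdkn2d* 549 and 588 and *Dmtn* 280 and 400. *Tcp11l2* (519 and 203), *Xpo7* (471 and 225) and *Bpgm* (766 and 477) stayed higher in the low group. The list sums are shares of non-globin UMIs only. Mitochondrial UMIs were a mean of 4.12%, 4.42% and 4.71% of the non-globin UMIs from low to high CD71.

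Split by Ter119 instead, globin was 35.1% in the low, 41.8% in the middle and 47.6% in the high group, and the S-phase sum was 7794, 6783 and 5596. The G2 and mitosis sum was 12510, 13564 and 15153. Markers of other cells differed here too, with the hepatocyte list at 902, 1669 and 1356 and the granulocyte and monocyte list at 231, 273 and 374. Their part in the other values was not tested. Across the 876 cells Spearman's rho of the globin percent was -0.41 with CD71, 0.29 with Ter119 and -0.70 with CD44, given as a description because these counts share the cells and their depth. CD71 and Ter119 had a rho of -0.09. The gate cuts the range of CD71 and Ter119 and not that of CD44, so these values are not like for like.

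**Figure D5:**
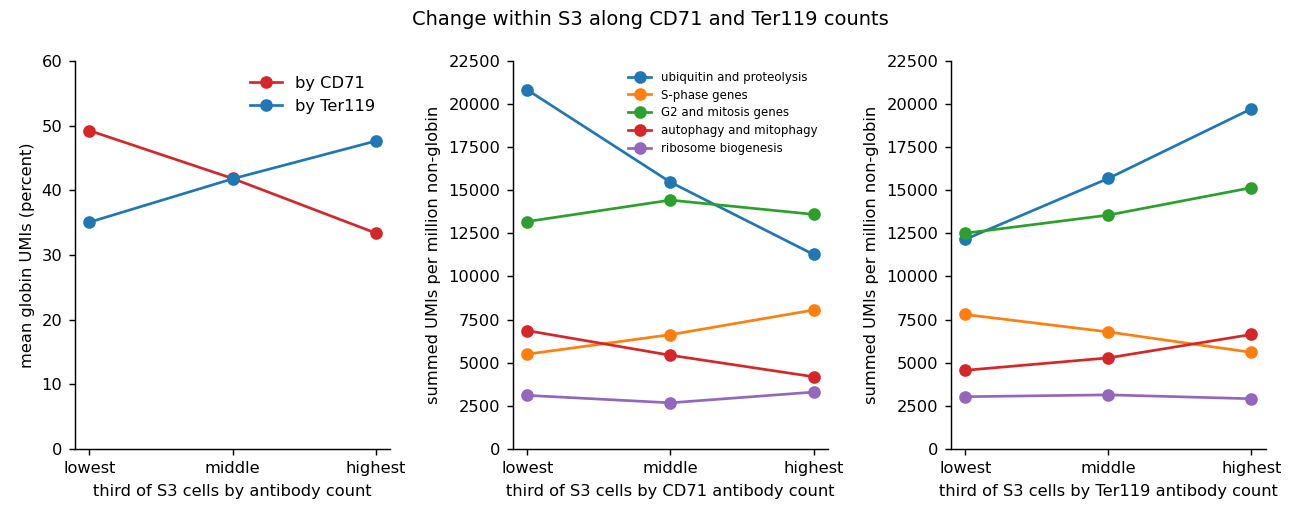
S3 cells in 3 equal groups by CD71 or by Ter119 count (x axes), with the mean globin percent (left) and the summed levels of 5 lists in UMIs per 1000000 non-globin UMIs (middle and right). Globin and the ubiquitin list decline towards high CD71 and increase towards high Ter119, and the S-phase list does the opposite.

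Surface cKit, the receptor of stem cell factor, and CD44, an adhesion receptor lost during erythroblast maturation, were measured but not gated. The cKit count had a median of 93.5 in S1, 23 in S2, 17 in S3 (quartiles 13 and 24, range 3 to 925) and 14 in S4/S5. The CD44 count had medians of 210, 122, 80 (quartiles 54 and 116, range 11 to 798) and 42. The cells of S2 and S3 overlapped widely for both antibodies. As a share of all antibody counts, which CD71 dominates, both were higher in S4/S5 than in S3 (2.56-fold for cKit and 1.74-fold for CD44). The RNAs were scarce. *Kit* had 30 UMIs and *Cd44* 48 in all S3 cells, which at this depth allows no comparison with the antibody counts.

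Genes chosen as markers of other liver and blood cells were found in S3 at low levels. The 7 hepatocyte genes, all detected and with *Afp* the most abundant (435), summed to 582 in S2, 1309 in S3 and 2475 in S4/S5, and 6 of 7 passed 1.5-fold from S2 to S3. Per cell 5 of the 7 were at least 1.5-fold higher in S3 than in S2, and 6 of the 7 were lower in S4/S5 than in S3, where as shares of non-globin UMIs 7 were higher, and pooled over cells 1 was. The median S3 cell had 2 such UMIs, as did the median S2 cell, and 3 were found in S4/S5. The mean was 3.06 UMIs per cell in S2, 5.64 in S3 and 3.10 in S4/S5. Without the cells in which these genes exceeded 1% of non-globin UMIs (4 in S2, 2 in S3 and 3 in S4/S5) it was 2.33, 2.64 and 3.08, so 2 cells decided the S3 mean per cell. The summed level as a share of non-globin UMIs was 531, 1124 and 2446 without these cells. The 8 granulocyte and monocyte genes, led by *S100a8* (77.3), summed to 147, 293 and 677, against 15242 in the reference cells, and per cell 0.684, 0.723 and 0.918 UMIs were found. The 8 macrophage genes summed to 26.0 in S3, led by *C1qb* at 7.03, and none had 50 UMIs. The 7 megakaryocyte genes summed to 277 in S2 and 365 in S3 (1.56 and 1.13 UMIs per cell), mostly *Rap1b* (191). The 7 endothelial and stromal genes summed to 39.5 and 84.6, mostly *Dlk1* (65.7). Each of these 2 sums rests mainly on 1 gene, whose source in S3 was not tested, so neither shows RNA of these cell types. Of the 5 B and mast cell genes 1 had no UMI in S3. Of the 20 progenitor genes 2 had no UMI, and the list summed to 453 in S2 and 644 in S3, led by *Lyl1* (287), with a median log2 ratio of 0.30, or -0.23 per cell. The part of such RNA in the other results was not tested. Of 10 genes at the loci chosen by the study, 3 of 8 listed were higher in S3 and 0 lower (0 and 1 per cell), and *Slc25a37* was the most abundant.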

How the data were processed

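The authors deposited raw UMI counts per gene and cell, made with Cell Ranger on mm10 from 1 library of a 10x Genomics 3′ kit, and raw counts per antibody barcode and cell. Whether antibody reads were collapsed by molecular identifier is not given in the sources used here. The table holds 58606632 UMIs in 7863 cells, none under 2510 UMIs, and 0 barcodes were repeated. The study's doublet removal is not part of the deposited table, and 128 cells called by Scrublet in scanpy 1.11.5 were kept. S3 was gated on antibody counts with the limits stated above. Levels are means over cells of UMIs per 1000000 non-globin UMIs. Ratios use genes with at least 50 UMIs in both groups together, and a gene is counted as higher or lower past 1.5-fold after adding 10 to each level (per cell, the same amount scaled to the mean non-globin UMIs of an S3 cell). With 1 library there is no replicate and no test, and 95% intervals cover counting error only (PCR duplicates are collapsed by UMI, but cells are not independent animals). Gene lists, members and rules were chosen with earlier results of these data known. The genes named are the 3 markers, the most abundant members of each list and those with the highest and lowest ratios, and the 10 highest and lowest of each comparison, with some further list members named after their values were seen. *Ahsp* and *Flvcr1* were not analysed here, and a few list members are not reported here. Promoters came from RefSeq, and 3 of the 5 genes looked up had one in the table. Computations used Python 3.11.15 with numpy 2.4.6, scipy 1.17.1 and pandas 2.3.3. Ratios were also computed on simulated Poisson counts for 7749 genes, of which 200 had a true change of 2-fold. Of these, 198 had the right direction and 145 passed 1.5-fold, as did 7 unchanged genes. The simulated cells of a group differed in depth only, so this covers counting error and not variation between cells.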

Additional observations from a re-analysis of the deposited data

How the results depend on the processing

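No paired analysis was possible because the 2 libraries are the RNA and the antibody readout of the same cells. How many genes counted as higher or lower depended on the scale, the pseudocount and the fold limit. From S2 to S3, 510 genes were higher and 585 lower, against 156 and 2146 with counts per 1000000 of all UMIs, 108 and 4434 with UMIs per cell, 773 and 1641 with a pseudocount of 1, and 178 and 14 at a fold of 2. Pooling over cells left 103 lower, and leaving out the 56 S3 cells under 10% globin, chosen after seeing the data, gave 959 lower and 560 higher. From S3 to S4/S5, 328 were higher and 798 lower, against 25 and 2671 with all UMIs, 11 and 4847 per cell, 540 and 1295 with a pseudocount of 1, and 57 and 122 at a fold of 2. Other filters and cell limits kept these counts within 1.5 times. Within S3, 276 genes were higher and 422 lower from high to low CD71, against 173 and 194 with 2 equal groups and 73 and 1187 with all UMIs.

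The mean globin share moved by more than counting error but kept its order. With Scrublet calls left out it was 18.0% in S2, 42.6% in S3 and 64.8% in S4/S5. Without cells within 10% of a limit it was 17.4%, 42.3% and 65.5%, with a lineage sum of at most 50 it was 18.5%, 42.6% and 65.0%, with at most 5% mitochondrial UMIs 21.4%, 43.2% and 64.8%, and pooled over cells 12.9%, 35.1% and 62.5%. As UMIs per cell, globin was 2.12-fold from S2 to S3 and 1.35-fold from S3 to S4/S5, against 2.33 and 1.56 as shares. The median cKit count with the lineage limit at 50 was 21 in S2 and 15 in S3, and with the mitochondrial limit 20 in S2. The median CD44 count of S2 was 113 and 104 under these limits. As percent of all antibody counts, S4/S5 exceeded S3 2.56-fold in cKit and 1.74-fold in CD44, where the counts had ratios of 0.824 and 0.525. This follows from the low CD71 count that defines S4/S5, since CD71 was 83.7% of the antibody counts of the median S3 cell and 51.6% in S4/S5.

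Of the named genes past 1.5-fold, 15 changed direction with UMIs per cell. From S2 to S3 the per-cell ratio was 0.915 for *Ftl1*, 0.984 for *Isca1*, 0.929 for *Rhag*, 0.986 for *Prdx2*, 0.902 for *Car2*, 0.822 for *Hspa5*, 0.919 for *Dstn* and 0.886 for *Sqstm1*. From S3 to S4/S5 it was 0.835 for *Slc25a39*, 0.529 for *Aqp1* (0.896 with all UMIs), 0.979 for *Map1lc3b*, 0.956 for *Riok3*, 0.874 for *Gpx1*, 0.552 for *Afp* and 0.501 for *Alb*. Of the lists with at least 5 genes listed, 16 had a median log2 ratio above 0 from S2 to S3 and 13 of these were below 0 per cell, and from S3 to S4/S5 it was 8 of 9. Some list medians past 1.5-fold from S3 to S4/S5 turned per cell. They were those of the 2-gene list of *Alas2* and *Eif2ak1* (-0.18), hepatocyte markers (-0.80) and endothelial and stromal markers (-0.26). In the 2-gene list *Eif2ak1* was at 0.669 of S3 per cell, while *Alas2* stayed above S3 at 1.15. The number of S3 cells ranged from 699 to 1062 with limits 10% higher or lower. Depth limits the scarce genes, since S4/S5 had a median of 1265 non-globin UMIs per cell.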

Other observations

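The 15 cells left out of the S3 gate for embryonic globin had a median of 61.3% of UMIs from *Hbb-y* and 82.1% from all globin genes. Their antibody counts were those of the gate, with medians of 153 for Ter119 and 1241 for CD71, but the CD44 count had a median of 9, against 76 in S3 cells with at least 10% globin. In them *Slc25a37*, at 3365 in S3, was at 62.6, and *Tfrc*, at 536 in S3, was at 90.1. They had a median of 1151 non-globin UMIs and 525 detected genes. With 15 cells at this depth, the levels of *Slc25a37* and *Tfrc* in them rest on few UMIs. In all, 77 lineage-low cells met this embryonic criterion.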
